A study of Mus musculus with 6 samples.

Results

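Array probes for 7 mature microRNAs (miRNAs) linked to bone-like change, calcium handling or endothelial injury were followed in vesicles released by mouse endothelial cells kept at normal or high inorganic phosphate. They were chosen by name, as every probe of the array for mouse miR-2861, miR-3960, miR-762, miR-714, either arm of miR-712, or miR-32-5p, which gave 7 of 1118 mouse miRNA probes. Per the labels, purchased mouse endothelial cells in a medium with 12% fetal bovine serum were held for 48 h at 0.9 mM (normal, 3 arrays) or 3.5 mM (high, 3 arrays) inorganic phosphate. Exosomes were spun out of the supernatant in steps, and their RNA was labelled with the dye Hy3 for a 1-colour miRNA array. Both groups shared the cells, the serum and the growth supplement, and differed in phosphate alone as labelled. The design text names arterial calcification in end-stage kidney disease as the motive. Separate cultures are not stated for the 3 replicates, so the p-values rest on a spread among samples that may be technical only.

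miRNAs are short RNAs that guide silencing proteins to messenger RNAs, mostly through pairing of bases 2 to 8, the seed. In mouse, miR-2861 and miR-3960 are transcribed together, are induced by the bone factor Runx2 and promote osteoblast differentiation by repressing Hdac5 and Hoxa2, which restrain it. For mouse vascular smooth muscle, miR-762, miR-714 and miR-712 have been reported to repress proteins that move calcium out of the cell, and miR-32-5p to promote calcification. In mouse endothelium, miR-712-5p is known as a miRNA that rises under disturbed flow and represses Timp3, an inhibitor of matrix-degrading enzymes.

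The sequences below are shown because they set the members apart in composition and seed. They are from RefSeq (GRCm38.p6), which paired mature sequences with 3 of the 7 members, and capitals mark the seed.
mmu-miR-2861: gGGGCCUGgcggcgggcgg
mmu-miR-762: gGGGCUGGggccgggacagagc
mmu-miR-32-5p: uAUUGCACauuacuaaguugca
For miR-3960 the hairpin was listed, printed without capitals.
Mir3960: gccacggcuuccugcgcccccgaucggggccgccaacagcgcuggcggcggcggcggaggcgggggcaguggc
The mature miR-2861 lies at chr2:32712819-32712837 on the minus strand. Its hairpin (chr2:32712807-32712888) and that of miR-3960 (chr2:32712900-32712972) are 11 bases apart, and no other RefSeq gene overlaps either. The mature miR-762 lies at chr7:127708534-127708555 on the plus strand, within the bounds of the gene Bcl7c. The mature miR-32-5p lies at chr4:56895272-56895293 on the minus strand, within the bounds of Tmem245. G and C made up 94.7% of the bases of miR-2861, 82.2% of the Mir3960 hairpin and 81.8% of miR-762, against 31.8% of miR-32-5p. The seeds GGGCCUG of miR-2861 and GGGCUGG of miR-762 begin with the same letters but are not the same seed.

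None of the 7 miRNAs gave signal above what probes for viral miRNAs gave on the same arrays. The signal of a probe is the mean over its 4 spots of foreground minus background, in scanner intensity units. The threshold was the 95th percentile of 57 probes for miRNAs of murine gammaherpesvirus and cytomegalovirus, which the mouse genome does not encode, and it lay between 1627 and 3233 units. A probe counted as above it if it exceeded it on at least 3 of the 6 arrays, which 0 of 7 members did, against 129 of 1118 mouse probes (11.5%). Against the median viral probe (52.2 to 77.2 units) 1 of 7 members was above, miR-712-3p, where 57.8% of mouse probes were. Against the 95th percentile of 1132 Empty spots, only 2 or 3 units, all 7 members were above on at least 3 arrays, as were 89.1% of mouse probes. All 6 arrays exceeded that lowest threshold for 6 members, where 80.2% of mouse probes did so, and miR-712-5p missed it on normal phosphate replicate 1. Of 7 negative control probes, 5 averaged under 5 units and the brightest averaged 1128 units. Signal at these levels does not show that a miRNA was present in the vesicles.

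**Figure D1:**
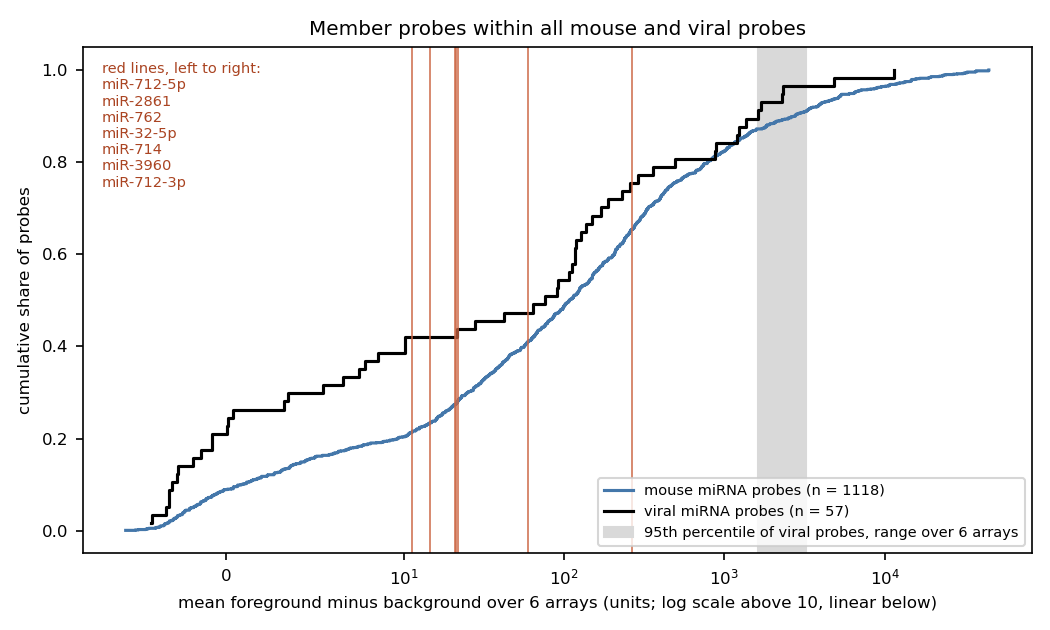
Cumulative share of mouse probes (blue) and viral probes (black) by mean signal over 6 arrays in intensity units, on an axis that is logarithmic above 10. The red lines of the 7 members all lie left of the grey band, the range of the viral threshold from 1627 to 3233 units.

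For both miR-2861 and miR-3960, replicate 1 of either group gave the highest arrays, a pattern also seen for miR-762 and for 10.2% of all mouse probes. The miR-2861 probe read 20.5, 8.25 and 9.75 units on normal phosphate replicates 1 to 3 and 29.8, 8.50 and 10.2 units on high phosphate replicates 1 to 3. Replicate 1 of either group was high and the other 4 arrays lay close together, so the groups overlapped. Means were 12.8 ± 6.68 units in normal and 16.2 ± 11.8 units in high phosphate (SD, n = 3). The miR-3960 probe read 117, 26.2 and 23.2 units in normal and 124, 26.2 and 41 units in high phosphate. Again replicate 1 of both groups stood apart, and it alone exceeded the median viral probe. The means of miR-3960 were 55.5 ± 53.3 and 63.8 ± 52.7 units (SD, n = 3), and the difference of 8.25 units was smaller than the SD of either group.

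Among the miRNAs reported to act on calcium efflux, miR-762 and miR-714 were as dim and as variable. The miR-762 probe read 27.8, 7.25 and 26.5 units in normal and 50.5, 5.75 and 7.50 units in high phosphate. High phosphate replicate 1 was its highest array and high phosphate replicate 2 its lowest, with means of 20.5 ± 11.5 and 21.2 ± 25.3 units (SD, n = 3). The miR-714 probe read 19.5, 9 and 48.5 units in normal and 37.5, 10 and 6.25 units in high phosphate. Its highest array was normal phosphate replicate 3, and the groups overlapped, at 25.7 ± 20.5 and 17.9 ± 17.1 units (SD, n = 3).

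The miR-712 arms are 2 different probes and are given apart. The miR-712-3p probe, of the arm opposite to the flow-responsive one, read 250, 250 and 352 units in normal and 224, 310 and 198 units in high phosphate. It was the member with signal above the median viral probe on all 6 arrays, and its groups overlapped at 284 ± 58.6 and 244 ± 58.4 units (SD, n = 3). The miR-712-5p probe read -0.50, 18 and 4 units in normal and 6.25, 21 and 18.8 units in high phosphate. Replicate 1, the highest of its group for miR-2861 and miR-3960, was the lowest of its group for miR-712-5p, whose means were 7.17 ± 9.65 and 15.3 ± 7.95 units (SD, n = 3).

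The miR-32-5p probe read 44.5, 19.8 and 18.8 units in normal and 6.25, 17 and 20.5 units in high phosphate. Normal phosphate replicate 1 was high and high phosphate replicate 1 low, while the other 4 arrays lay between 17 and 20.5 units. Means were 27.7 ± 14.6 and 14.6 ± 7.43 units (SD, n = 3), and high phosphate replicate 3 exceeded normal phosphate replicates 2 and 3.

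**Figure D2:**
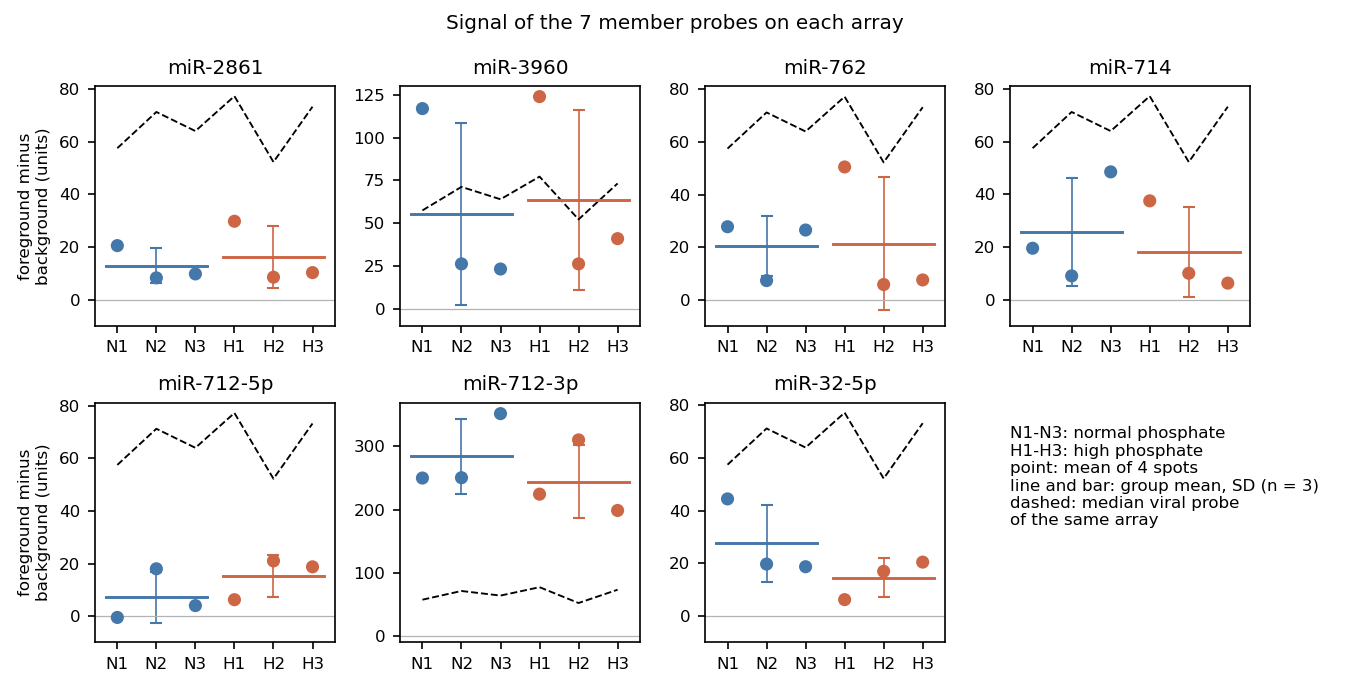
Foreground minus background in intensity units of each member on normal (N1 to N3, blue) and high phosphate arrays (H1 to H3, orange), with group mean and SD (n = 3) and the median viral probe of each array (dashed). The groups overlap for all 7 members, and 1 member, miR-712-3p, lies above the dashed line on all 6 arrays.

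The spread among the 4 spots of a probe was compared with that among arrays. For miR-712-5p the SD among the 4 spots of an array had a median of 1.95 units, against an SD among arrays of 9.65 units in normal and 7.95 in high phosphate. For miR-714 the spot SD had a median of 3.56 units, against 20.5 and 17.1 units among arrays. For miR-32-5p the median spot SD was 6.91 units, against an SD of 14.6 units among its normal and 7.43 units among its high phosphate arrays. For miR-2861, high phosphate replicate 1 had the widest spots, with an SD of 13.7 units around its mean of 29.8, above the SD among arrays of either group. In all 7 members the difference between the group means was smaller than the wider of the within-group ranges of the arrays. The share of all mouse probes for which this held was not counted, so it is not shown to be particular to the members.

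With quantile normalization no member passed a test between the phosphate levels. In the fit over the 129 probes above the viral threshold, 0 members were tested, and 0 of 129 probes (0%) passed limma after Benjamini-Hochberg adjustment (9 at an unadjusted p under 0.05). To give each member a value, all 1118 mouse probes were also fitted together with limma's intensity trend, on log2 values that carry an offset of 50 units and so understate differences of dim probes. In that fit 0 of 7 members passed, as did 0 of 1118 probes (0%), and at an unadjusted p under 0.05 there was 1 member of 7, against 67 of 1118 probes (5.99%). Without moderation of the variance 0 of 7 members and 0 of 1118 probes passed. At an unadjusted p under 0.05 there were then 0 members and 45 of 1118 probes.

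The member with the smallest p was miR-32-5p. Its normalized log2 levels were 6.90, 6.45 and 6.57 in normal and 6.16, 6.44 and 6.39 in high phosphate. The groups then no longer overlapped, by a margin under 0.01 on the log2 scale, which was the case for 1 of 7 members and for 8.68% of all mouse probes. The log2 difference, high minus normal phosphate, was -0.31 (SE 0.13, 95% interval -0.61 to -0.02, limma unadjusted p = 0.0417, adjusted p = 0.721). Without normal phosphate replicate 1 it was -0.18, and without normal phosphate replicate 2 it was -0.45. Before scaling, 0 of 7 members had groups without overlap, where 8.59% of mouse probes did.

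The other members had intervals that included 0 and, for several, wide ones. The log2 difference was -0.22 for miR-714 (SE 0.19, 95% interval -0.65 to 0.21, limma adjusted p = 0.760) and -0.21 for miR-712-3p (SE 0.25, interval -0.79 to 0.36, limma adjusted p = 0.845). It was -0.12 for miR-762 (SE 0.17, interval -0.52 to 0.29) and 0.10 for miR-712-5p (SE 0.11, interval -0.15 to 0.34). For miR-2861 it was -0.043 (SE 0.09, interval -0.25 to 0.17). For miR-3960 it was -0.0037, with the widest interval of the members, from -0.81 to 0.80. Limma's adjusted p for these 4 members lay between 0.828 and 0.998. Leaving out single arrays moved miR-714 between -0.42 (without normal phosphate replicate 2) and -0.017 (without normal phosphate replicate 3), and miR-762 between -0.30 (without normal phosphate replicate 2) and -0.026 (without high phosphate replicate 3). It moved miR-712-3p between -0.34 (without high phosphate replicate 2) and -0.093 (without normal phosphate replicate 3), and miR-712-5p between 0.012 (without high phosphate replicate 2) and 0.20 (without normal phosphate replicate 2).

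Without the offset the same members had larger log2 differences, and 0 of 7 members and 0 of 1118 probes passed. With plain subtraction floored at 1 unit, miR-32-5p stood at -1.52, miR-714 at -0.94 and miR-762 at -0.69. There miR-712-5p stood at 1.12, with normal phosphate replicate 1 at the floor. Limma's adjusted p of these 4 members in that setting lay between 0.754 and 0.886.

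Of the 7 members, the normalized mean was higher in high phosphate for 1 and lower for 6 (median log2 difference -0.12), against 546 of 1118 mouse probes higher (48.8%) and a median of -0.0021. With scaling to the spike controls or to the Hy3 spots, 2 kinds of control on the array, the median of the 7 turned to 0.31 or 0.38, and that of all mouse probes to 0.38 or 0.46. Limma called 0 of 7 members under either scaling, where it called 76 of 1118 mouse probes with the spike controls and 151 with the Hy3 spots. When 3 unnamed low spots were also left out of the background fit, an alternative chosen after seeing the data, limma called 1 member with spike control scaling, where it called 38.9% of mouse probes. With Hy3 scaling it then called 5 of 7 members, where it called 63.1% of mouse probes. In units before scaling, the mean was higher in high phosphate for 4 members and lower for 3, and for miR-2861, miR-3960 and miR-762 the sign differed between units and normalized log2 values. The control spots were dimmer in high phosphate: the mean log2 signal of the spike controls ran from 9.40 to 9.53 in normal and from 8.62 to 9.06 in high phosphate, and that of the Hy3 spots from 9.37 to 9.69 and from 8.74 to 9.03. Their part in the members' values is shown by that scaling alone and was not tested further.

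**Figure D3:**
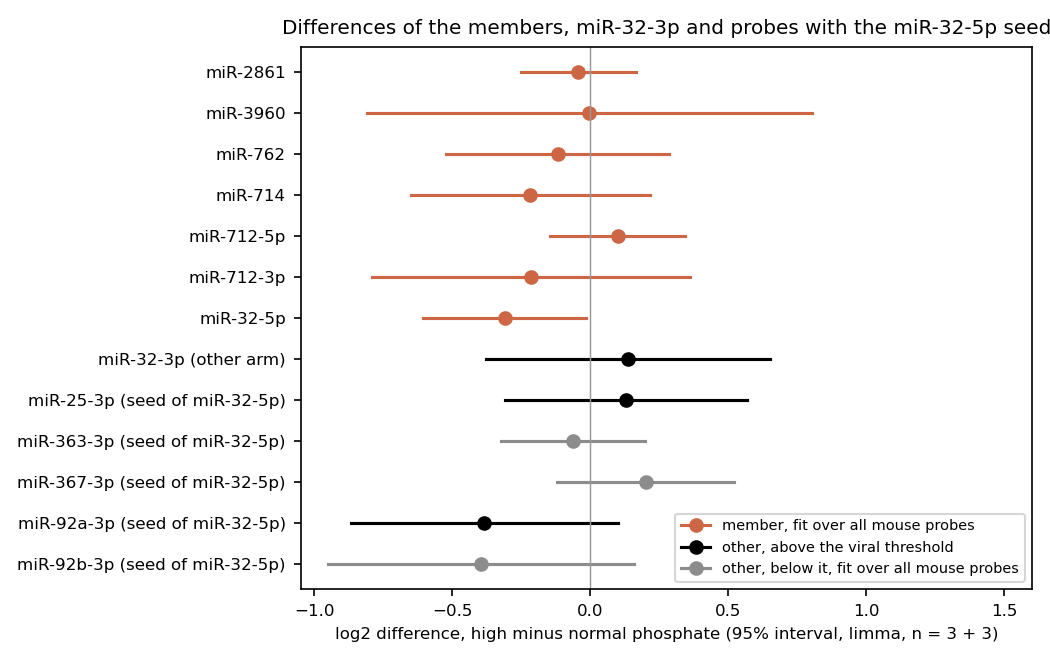
Log2 difference, high minus normal phosphate, with 95% intervals (limma, 3 arrays a group) for the 7 members (orange), miR-32-3p and 5 probes with the seed of miR-32-5p (black or grey). The interval of miR-32-5p ends at -0.02, and those of the other probes include 0.

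A p under 0.05 was given to 0 of 7 members in the authors' deposited table, and to 3.95% of mouse probes. The authors' deposited table gave miR-32-5p a fold of 0.486 for high over normal phosphate (p = 0.194, false discovery rate 0.794). It gave miR-712-5p a fold of 1.44 (p = 0.581), from the 5 of 6 arrays on which the authors' deposited table has a value, normal phosphate replicate 1 being absent. The other 5 folds in the authors' deposited table ran from 0.706 for miR-714 to 1.27 for miR-2861.

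The opposite arm of the miR-32 hairpin, and miR-25-3p and miR-92a-3p among the relatives of miR-32-5p, show what the same arrays gave for probes with signal. The miR-32-3p probe (chr4:56895232-56895252, minus strand) is shown for its different seed.
mmu-miR-32-3p: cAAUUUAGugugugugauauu
It read 2815, 2720 and 2820 units in normal and 2270, 3497 and 2608 units in high phosphate, above the viral threshold on 4 of 6 arrays. Its groups overlapped at 2785 ± 56.2 and 2792 ± 634 units (SD, n = 3), with a log2 difference of 0.14 (SE 0.22, 95% interval -0.38 to 0.65, limma adjusted p = 0.890). The signal of the 2 arms comes from different probes and gives no ratio of the arms.

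Among the 935 of 1118 mouse probes matched to a RefSeq mature sequence, 5 others had the seed AUUGCAC of miR-32-5p, and these therefore share its predicted pairing through bases 2 to 8. They are printed to show that they diverge from miR-32-5p after the seed.
mmu-miR-25-3p: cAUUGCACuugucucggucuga
mmu-miR-92a-3p: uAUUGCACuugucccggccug
mmu-miR-92b-3p: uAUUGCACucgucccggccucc
mmu-miR-363-3p: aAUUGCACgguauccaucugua
mmu-miR-367-3p: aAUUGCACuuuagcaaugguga
Of these, miR-25-3p and miR-92a-3p exceeded the viral threshold on all 6 arrays and 0 of 2 passed limma after adjustment. The miR-25-3p probe, read 26300, 25898 and 35686 units in normal and 28024, 34662 and 19964 units in high phosphate. Its groups overlapped, and its log2 difference was 0.13 (SE 0.19). The miR-92a-3p probe, read 10494, 9013 and 13276 units in normal and 7754, 8388 and 5710 units in high phosphate. All 3 high phosphate arrays of miR-92a-3p lay below the normal ones before scaling, and its log2 difference was -0.38 (SE 0.21, limma adjusted p = 0.828). The remaining 3 stayed below the threshold, with miR-92b-3p at 755 ± 113 and 583 ± 147 units, miR-363-3p at 19.7 ± 12.1 and 19.2 ± 7.80 units, and miR-367-3p at 29.7 ± 5.53 and 56.9 ± 28.8 units (SD, n = 3). The seed GGGCCUG of miR-2861 recurred among those 935 in miR-3091-3p, which read at most 14 units.

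Probes for other miRNAs of bone, calcium and flow biology were counted in the fit over 129 probes, in which 62 lay above 0 and 67 below (high minus normal phosphate, median log2 difference -0.016). Of 19 miRNAs that target Runx2 or are reported to restrain osteoblasts, 8 were tested and 0 passed, and all 8 values were below 0 (median -0.13) with quantile normalization but above 0 with spike control or Hy3 scaling (medians 0.27 and 0.35). They included miR-211-5p at -0.40 (SE 0.26) and miR-30e-5p at -0.27 (SE 0.24), of families that repress Runx2. The median of all 129 tested probes was 0.38 with the spike controls and 0.46 with the Hy3 spots. Of 14 reported promoters of osteoblast change 5 were tested and 0 passed, with 3 above 0, 2 below and a median of 0.080. The promoter median was -0.21 with median scaling, where the median of all 129 tested probes was -0.18. With spike control and Hy3 scaling the promoter median was 0.35 and 0.43. With quantile normalization, miR-21a-5p of that list stood at 0.36 (SE 0.25). There miR-29a-3p, which represses collagen and Wnt inhibitors, stood at -0.26 (SE 0.19).

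Of 16 flow-sensitive endothelial miRNAs 11 were tested and 0 passed, with 3 above 0, 8 below and a median of -0.28 that turned to 0.084 with spike control and 0.16 with Hy3 scaling. With the 3 low spots left out and spike control scaling, the median of the flow-sensitive list was -0.0016, with 5 above 0 and 6 below, and 2 of the 8 osteoblast inhibitors were below 0. In that list miR-19b-3p stood at -0.55 (SE 0.19, limma adjusted p = 0.518) and miR-10a-5p, known to restrain endothelial inflammation, at -0.28 (SE 0.22). Of 9 miRNAs of calcium handling in muscle and heart cells 4 were tested and 0 passed, with 1 above 0, 3 below and a median of -0.18 that turned to 0.24 and 0.32 under those scalings. The muscle miRNA miR-1a-3p of that list stood at -0.74 (SE 0.33, limma adjusted p = 0.698). Several miRNAs belong to more than 1 list, and nothing particular to any list follows from these counts.

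**Figure D4:**
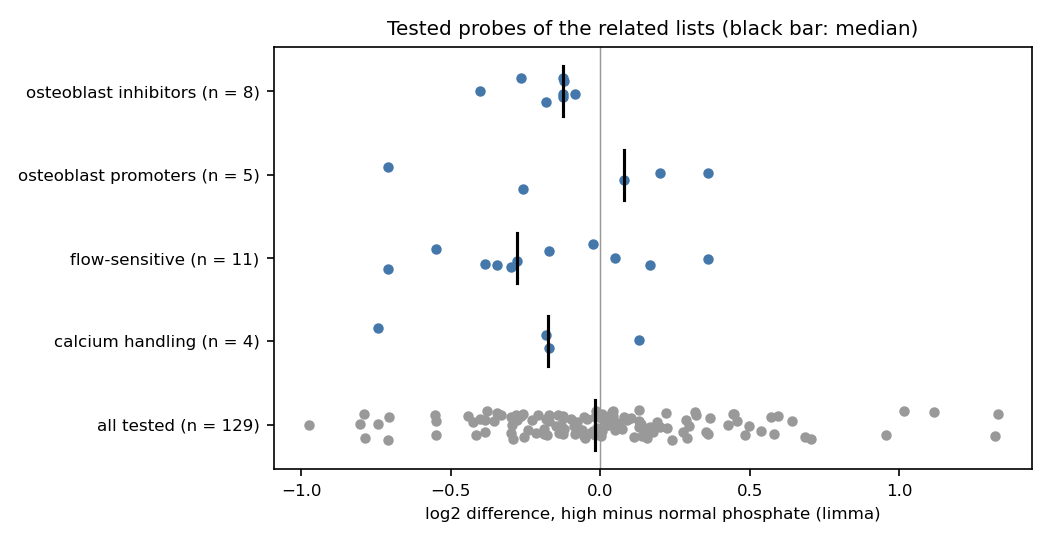
Log2 difference, high minus normal phosphate (limma), of the tested probes in 4 related lists (blue) and of all 129 tested probes (grey), with medians as black bars. The 8 tested osteoblast inhibitors all lie below 0 here, though above 0 with spike control or Hy3 scaling, and the median of all tested probes is -0.016.

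The arrays carried signal for the labelled cell type and for others. Both arms of the endothelial miR-126a exceeded the viral threshold on all 6 arrays, with a summed signal of 16243 to 18150 units in normal and 11924 to 17480 units in high phosphate. So did 3 of 3 red cell probes, the liver miRNA miR-122-5p, 2 of 4 muscle, 1 of 2 smooth muscle, 1 of 4 leukocyte, 1 of 5 epithelial and 0 of 3 neuronal probes. In normal phosphate the sums were higher for red cell (50024 to 66834 units), muscle (44877 to 57974) and smooth muscle probes (42698 to 58615). They were lower for leukocyte (4676 to 7615), epithelial (6274 to 7918) and neuronal probes (1144 to 2347), and miR-122-5p read 12880 to 24575 units. Sums of different probes give no ratio of the sources. The part of RNA from the serum or from other cells in the members' signal was not tested, and the number of vesicles and the RNA per vesicle cannot be told apart.

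The members also differed in how they varied together across the 6 arrays, given here as a description of normalized log2 values. The Pearson r of miR-2861 was 0.90 with miR-3960 and 0.92 with miR-762, and -0.91 with miR-712-5p. The r of miR-32-5p with the other 6 members lay between -0.31 and 0.40. In normalized log2 values the pattern with replicate 1 of both groups highest held for miR-2861 and miR-3960, against 9.39% of mouse probes. Equal numbers are not labelled as a shared culture, and these values rest on dim signal. Of all mouse probes, those most like miR-2861 were miR-211-3p, miR-1902 and miR-1982-5p (r from 0.988 to 0.992), and those most like miR-3960 were miR-466n-5p, miR-195a-5p and miR-489-5p (0.957 to 0.972). The miR-762 probe was most like miR-1956, miR-1941-5p and miR-500-3p (0.956 to 0.975), and miR-714 most like miR-363-5p, miR-184-3p and miR-1264-5p (0.968 to 0.973). For miR-712-5p these were miR-683, miR-3080-3p and miR-214-5p (0.988 to 0.991), for miR-712-3p miR-133a-3p, miR-375-5p and miR-483-3p (0.993 to 0.998), and for miR-32-5p miR-335-5p, miR-23a-3p and miR-1a-3p (0.985 to 0.991). Each r is among the 3 highest picked from all mouse probes over only 6 arrays, and such picking alone gives high values. The named probes are therefore not shown to vary with the members beyond that. All these probes share the 6 arrays and their scaling. Some of them, such as miR-184-3p and miR-1a-3p, were bright, while miR-1264-5p averaged -3.17 units.

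**Figure D5:**
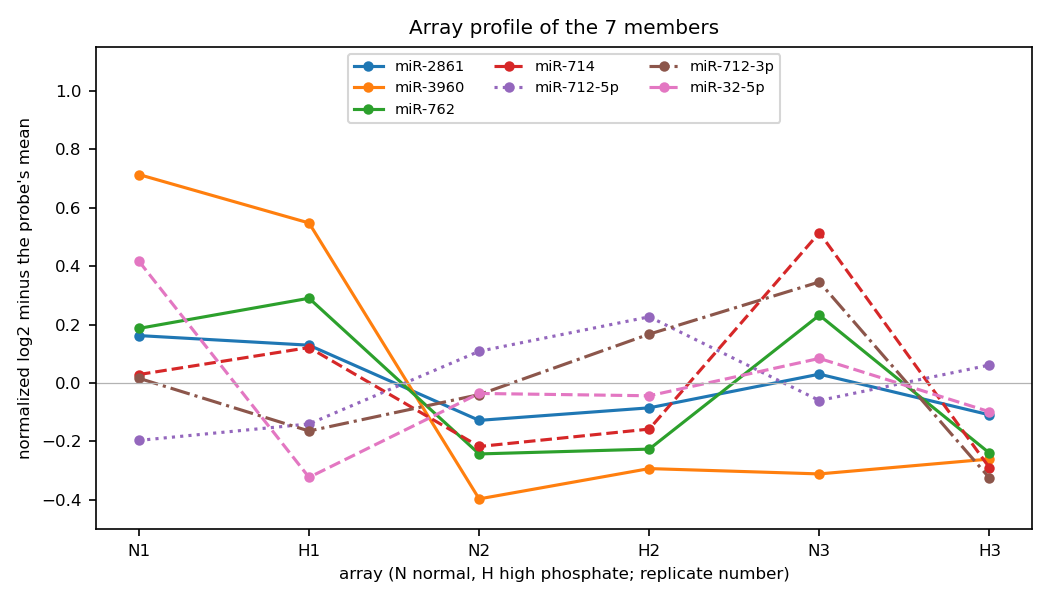
Normalized log2 value of each member minus its mean, for the 6 arrays ordered by replicate number (N normal, H high phosphate), with lines that only join the points of a probe. Replicate 1 of both groups is highest for miR-2861 and miR-3960 and lowest for miR-712-5p.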

How the data were processed

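Small RNA from exosomes was measured on 6 arrays, 3 at each phosphate level. The authors deposited spot intensities as foreground and as foreground minus background, per the file headers, and no scanner is named in them. The authors also deposited normalized intensities, each a ratio of the spots' median signal to a factor per array (319 to 344.5 units), which held for 100% of mouse values within 1e-06 units, and a fold change, p-value and false discovery rate. Another 12 per-sample columns of that table were not used.

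Starting from the spots, normexp with an offset of 50 corrected the background (limma 3.58.1 in R 4.3.3), the spots of a probe were averaged, and arrays were quantile normalized over mouse and viral miRNA probes and taken to log2. The contrast of high minus normal phosphate was tested 2-sided with limma's lmFit and eBayes, Benjamini-Hochberg adjusted over all probes fitted, threshold 0.05, once over the 129 probes above the viral threshold and once over all 1118 with an intensity trend. A difference from 3 arrays against 3 is limited in precision by that number. On the array, 3 unnamed spots of normal phosphate replicate 2 lay below -50 units and moved its fitted normexp background to -61.2, against -12.2 to -6.36 on the other arrays. Leaving them out changed no member's log2 difference by more than 0.037 under quantile normalization. Without normalization between arrays, leaving them out moved miR-712-5p from -0.16 to 0.11. The code was tested on simulated data. Alternatives covered background, normalization, variance model, filter, spot summary, single arrays and the replicate number. Named were all 7 members, the 2 probes of smallest p and the 2 brightest of each list, a selection of which is given, and the 3 probes most like each member. The members and lists were chosen with earlier results of these data known.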

Additional observations from a re-analysis of the deposited data

How the results depend on the processing

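With quantile normalization 0 of 7 members, and 0 of all 1118 mouse probes, passed under any alternative run. Members above the viral threshold stayed at 0 with the negative controls as threshold, the median of spots, all 6 arrays or any array left out. With the viral median 1 member and with the Empty spots 7 members were above and so received a log2 difference. Of these 0 passed, as did 0 of 646 and 0 of 996 probes fitted. The median log2 difference of the 7 was -0.27 with floored subtraction, -0.26 with median scaling, -0.29 without normalization between arrays, -0.25 with array weights, 0.31 with spike control scaling and 0.38 with Hy3 scaling. Mouse probes as a whole also moved down, to -0.18 under median scaling and -0.22 when arrays were left unnormalized. Once the 3 low spots were dropped, the 7 members stood at -0.17 under median scaling, against -0.11 for all mouse probes. Unnormalized, they then stood at -0.062, against -0.0055. Leaving out single arrays moved the median of the 7 between -0.30 (without normal phosphate replicate 2) and -0.026 (without high phosphate replicate 3).

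The direction of miR-3960 turned to 0.092 with floored subtraction, 0.0030 without background correction, 0.018 with an offset of 10, 0.094 with the deposited intensities and 0.12 with array weights, and it ran from -0.28 to 0.35 with single arrays left out. That of miR-2861 turned to 0.090 with the deposited intensities and ran from -0.13 to 0.027 with single arrays left out. That of miR-712-5p turned to -0.12 with median scaling and -0.16 without normalization. With the 3 low spots also left out, miR-712-5p stood at 0.0029 and 0.11 in those settings, so its direction did not turn. With spike control scaling the values were 0.31 (miR-2861), 0.44 (miR-3960), 0.23 (miR-762), 0.13 (miR-714), 0.33 (miR-712-3p) and 0.060 (miR-32-5p), and with Hy3 scaling 0.38, 0.51, 0.31, 0.20, 0.40 and 0.13 in the same order. Hy3 scaling gave 7 calls among the 129 bright probes, a fit that holds no member. In the fit over all mouse probes Hy3 scaling called 0 of 7 members and 151 of 1118 probes.

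Leaving 3 spots out of normexp was chosen after seeing the data. It turned miR-3960 to 0.00049, and without normalization miR-3960 to 0.083 and miR-2861 to 0.0079. Combined with spike control scaling it called 1 of 7 members, miR-712-5p at 0.62, against 435 of 1118 probes (38.9%). The median of the 7 was then 0.45, with miR-2861 at 0.52, miR-3960 at 0.60, miR-762 at 0.45, miR-714 at 0.34, miR-712-3p at 0.32 and miR-32-5p at 0.23. Combined with Hy3 scaling it called 5 of 7 members against 706 of 1118 probes (63.1%), and 6 calls among the 129 bright probes. The median of the 7 was then 0.58, with miR-2861 at 0.65, miR-3960 at 0.73, miR-762 at 0.58, miR-714 at 0.47, miR-712-5p at 0.75, miR-712-3p at 0.45 and miR-32-5p at 0.36. Such scaling adds 1 constant per array to every probe, which moved the median of all mouse probes to 0.51 and 0.64.

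With the replicate number as a block, the lowest adjusted p of a member was 0.652 (limma), and 0 of 7 members and 0 of 1118 probes passed. The labels do not say that equal numbers mark a shared culture, so the numbers were not taken to pair the arrays. Over all mouse probes, deviations from the group mean correlated at 0.31, 0.041 and -0.29 between arrays numbered 1, 2 and 3. The highest correlation of the same normal phosphate array with a high phosphate array of another number was -0.034, 0.25 and 0.33. These values do not decide whether the arrays are paired. All 7 members lay below the viral threshold, which limits what their differences can show.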

Other observations

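Of 42 mouse probes whose RefSeq mature sequence holds at least 70% G or C, a list that includes miR-2861 and miR-762, 3 exceeded the viral threshold (7.14%), against 110 of 893 probes under that share (12.3%). Of the 11 with at least 80%, 0 did. The median log2 difference, high minus normal phosphate, was -0.045 over the 42 and -0.0025 over the 893, and 0 of either passed limma after adjustment.

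The pattern in which replicate 1 of both groups was highest was looked at after the members' values were seen. In normalized log2 values it held for 3 of the 11 probes with at least 80% G or C (27.3%), among them the member miR-2861. It held for 6 of the 42 with at least 70% (14.3%) and 105 of all 1118 mouse probes (9.39%). The opposite pattern, replicate 1 of both groups lowest, held for 2 of the 11 (18.2%), 10 of the 42 (23.8%) and 163 of all 1118 (14.6%). These counts are descriptions of 6 arrays, and no cause was tested.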
